A study of Homo sapiens with 10 samples.

Results

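The 10 genes described here encode enzymes of serine synthesis and of folate one-carbon metabolism, with the mitochondrial folate carrier. They were taken by gene symbol, under a rule that names enzymes and no level but was written with earlier results of these data known, as 10 of the 60671 genes in the table of normalized counts, and all 10 passed the filter on low values (at least 10 normalized counts on average). PHGDH, PSAT1 and PSPH carry out the steps of serine synthesis. SHMT1 and MTHFD1 act on folate in the cytosol. SHMT2, MTHFD2, MTHFD1L and ALDH1L2 act on folate in mitochondria, and SLC25A32 brings folate into the organelle.

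Cells make serine from a glycolytic intermediate, 3-phosphoglycerate, and pass one of its carbons to folate, which leaves glycine. The carbon is then used for purines, thymidylate and methionine, or oxidized to give NADPH. The cytosol and the mitochondria each hold a set of these enzymes, and formate moves between them. In many human cell lines several serine synthesis and mitochondrial folate genes are known targets of ATF4, a transcription factor that is induced when AAs are lacking.

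RNA came from U2OS, an established human osteosarcoma line, and was sequenced after ribosomal RNA had been depleted. EBSS+VBL+Gln+Ars cells (glutamine-recovered) spent 18 h in EBSS (a glucose-containing salt solution that lacks AAs, used without serum by the study's methods) with glutamine and VBL. EBSS+VBL+Ars cells (starved) had the same treatment without glutamine. Ars cells were not starved and had no VBL. All 3 groups received arsenite, an oxidative stressor that induces stress granules (SGs), for 50 min, and each had 3 libraries. VBL is vinblastine, a drug that disrupts microtubules. One library came from untreated cells, so only its comparison with Ars cells bears on arsenite itself. Withdrawal of AAs, of serum and of other nutrients absent from a salt solution came together with VBL as one treatment. Their effects cannot be told apart here. The folate content of the media is not given in the sources used here. Whether the libraries of a group were grown as separate cultures is not given in the sources used here, and p-values therefore reflect just the spread among libraries, which may be technical.

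Recovered reads per library were 4452208 to 6323628 in EBSS+VBL+Gln+Ars, 3538017 to 4993421 in EBSS+VBL+Ars, 5914439 to 7019842 in Ars and 5302037 in the untreated library. Between 7.88 and 20.2% of a library's reads came from RN7SL1, a non-coding RNA. Of 6 genes fixed as markers of the line, RUNX2, COL1A1, SPARC and VIM were present in every library. TWIST1 was at 0 in all 10, and COL1A2 did not exceed 11.9 normalized counts. Summed over the 6, these markers had 27258 to 29191 normalized counts in Ars and 12638 in the untreated library. The sum was 14685 to 16378 in EBSS+VBL+Ars and 16862 to 18488 in EBSS+VBL+Gln+Ars, so their level differed between groups. The summed level of 4 epithelial and blood markers was 6.53 to 14.1 normalized counts in EBSS+VBL+Gln+Ars, 12.4 to 16.6 in EBSS+VBL+Ars, 10.9 to 13.0 in Ars and 2.85 in the untreated library.

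Gene positions below are those of GENCODE 44 on hg38, the build of the study. Promoter sequences from RefSeq (GRCh38.p14) matched 6 of the 10 genes: PHGDH, PSAT1, SHMT1, MTHFD1, MTHFD2 and MTHFD1L. The 250 bases before the start were searched on both strands for TGATGNAA (the core of the C/EBP-ATF response element), CACGTG (an E-box, which MYC can bind) and CCAAT, motifs that do not overlap one another in these windows. In the window listed first for each gene, CCAAT was found for 6 of 6 genes, against 32% of all 35116 RefSeq windows of that length. TGATGNAA was found for 1 of 6, against 3.14% of all windows, and CACGTG for 2 of 6, against 6.34%. MTHFD1L has 4 listed windows, of which 3 hold CCAAT, 2 hold TGATGNAA and 2 hold CACGTG, and the other 5 genes have 1 each. Stretches of 4 promoters are shown with matches in capitals, namely those of MTHFD2 and PSAT1, which were higher in starved cells, that of SHMT1, which was lower, and that of MTHFD1L, which holds TGATGNAA.
MTHFD2: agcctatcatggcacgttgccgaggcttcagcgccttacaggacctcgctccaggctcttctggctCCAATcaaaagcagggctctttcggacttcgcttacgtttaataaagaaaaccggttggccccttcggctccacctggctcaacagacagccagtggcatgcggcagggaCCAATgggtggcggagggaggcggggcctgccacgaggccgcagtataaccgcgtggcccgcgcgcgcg
PSAT1: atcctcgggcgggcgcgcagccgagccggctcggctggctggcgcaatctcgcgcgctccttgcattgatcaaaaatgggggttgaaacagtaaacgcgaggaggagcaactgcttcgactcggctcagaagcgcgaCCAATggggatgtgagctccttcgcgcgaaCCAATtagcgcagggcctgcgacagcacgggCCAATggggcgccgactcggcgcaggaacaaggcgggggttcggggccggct
SHMT1: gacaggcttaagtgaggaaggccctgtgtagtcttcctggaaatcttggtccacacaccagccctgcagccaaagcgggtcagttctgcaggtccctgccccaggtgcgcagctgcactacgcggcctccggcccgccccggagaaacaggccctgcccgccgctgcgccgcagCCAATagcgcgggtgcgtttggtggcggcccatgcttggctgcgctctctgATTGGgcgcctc
MTHFD1L: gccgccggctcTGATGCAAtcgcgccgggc
The MTHFD2 stretch is chr2:74198365-74198609 on the plus strand, with CCAAT 184 and 74 bases before the RefSeq start. The PSAT1 stretch is chr9:78296875-78297124 on the plus strand, and its CCAAT matches begin 113, 83 and 52 bases before the start. The SHMT1 stretch is chr17:18363564-18363800 on the minus strand, with a forward match 76 bases and a reverse match (ATTGG) 25 bases before the start. These 3 stretches stop where an annotated exon of the gene begins. The MTHFD1L stretch, chr6:150866346-150866375 on the plus strand, is limited to 30 bases around its TGATGCAA, which begins 129 bases before the first RefSeq start and lies in the first exon of 1 annotated transcript that starts upstream. A CACGTG begins 154 bases before the same start. A match describes the letters only and shows no binding.

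In starved cells, PHGDH and PSAT1 of serine synthesis and the 5 mitochondrial genes were higher than in Ars cells, and the cytosolic genes SHMT1 and MTHFD1 were lower. This comparison asked what starvation combined with VBL did to cells that all received arsenite. Calls required an adjusted p below 0.05 (limma, Benjamini-Hochberg over 12971 genes) together with a difference of 1.5-fold or more. Of the 10 genes, 7 were called higher, where 21.5% of all genes tested were, and 2 were called lower, where 21.3% were (9 in either direction, against 42.8%). The starved and Ars libraries did not overlap for 10 of 10 genes, against 60.0% of all genes tested. The median log2 fold change was 1.04 over the 10 genes and 0.02 over all genes tested. In bulk RNA, fewer cells of a kind and less RNA per cell cannot be told apart.

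**Figure D1:**
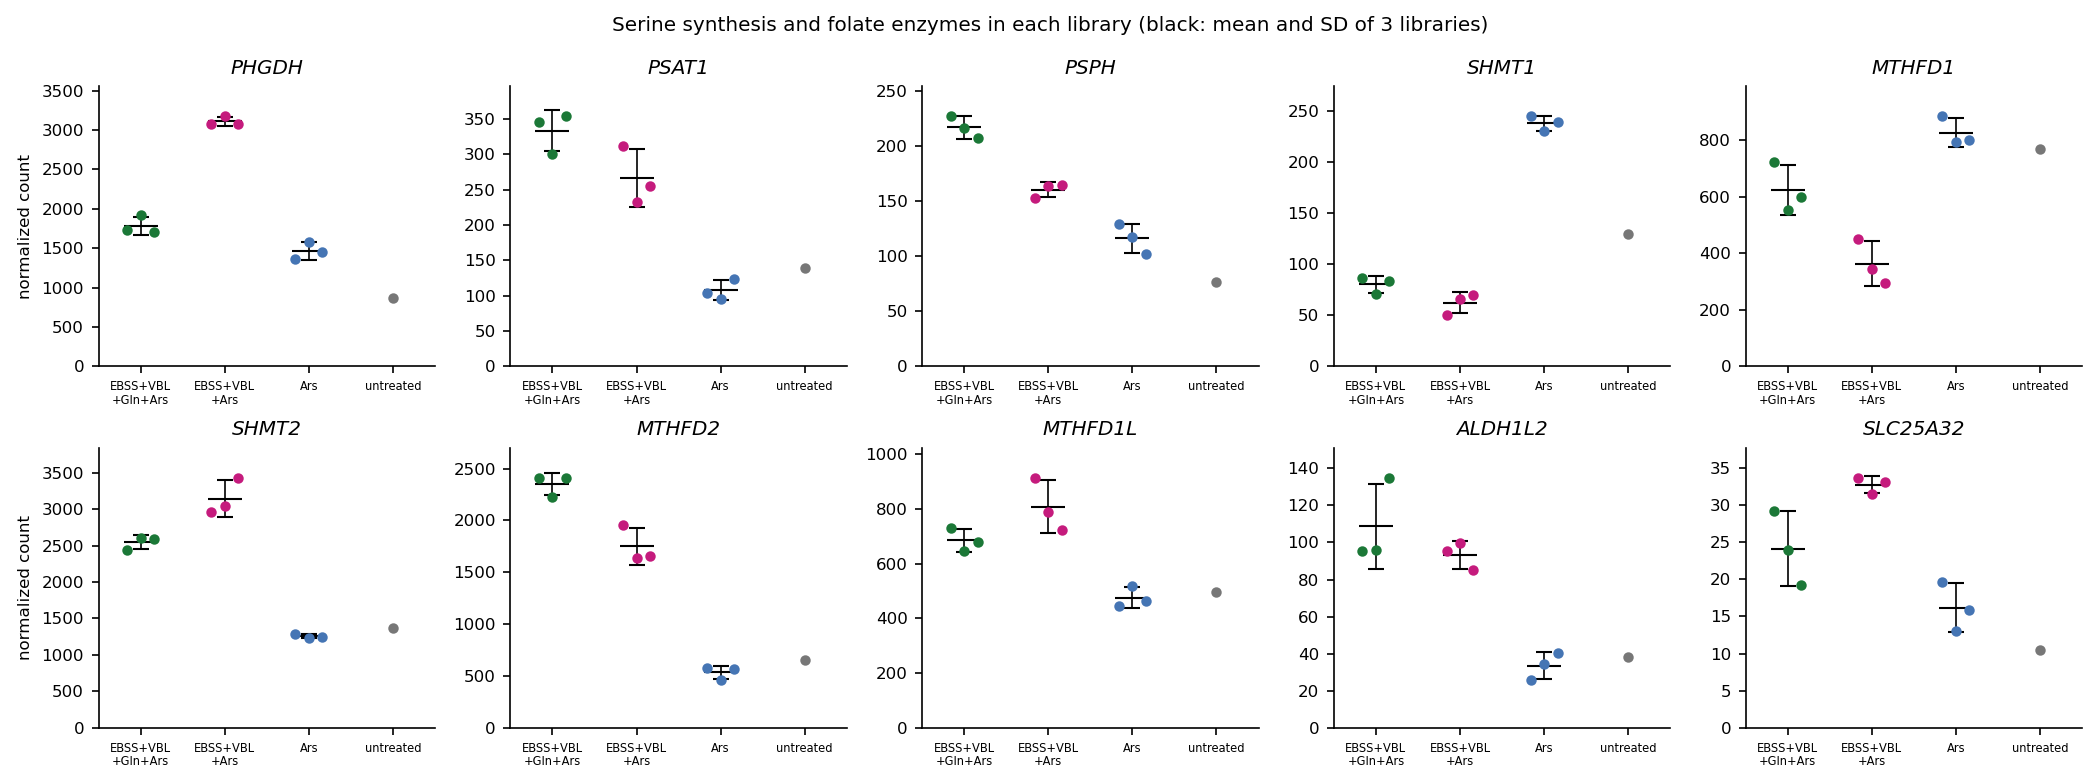
Normalized counts (vertical axis, from 0) of the 10 genes in each library, 1 panel a gene, with EBSS+VBL+Gln+Ars, EBSS+VBL+Ars, Ars and untreated libraries from left to right. Points are libraries and black marks are the mean and SD of 3. SHMT1 and MTHFD1 were lowest in the starved libraries (50.5 to 69.6 and 295.0 to 449), whereas PHGDH was highest there (3075 to 3178).

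PHGDH (chr1:119648411-119744218, plus strand) encodes the first enzyme of serine synthesis, which oxidizes 3-phosphoglycerate. It had 3075, 3178 and 3079 normalized counts in the starved libraries, against 1358, 1583 and 1451 in the Ars libraries. Every starved library lay far above every Ars library, and the 3 starved values were close to one another. PHGDH was 2.13-fold higher (log2 fold change 1.09 ± 0.10, with the SE after ± as in all log2 fold changes here, limma adjusted p = 2.98e-08).

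PSAT1 (chr9:78297125-78330093, plus strand) encodes the aminotransferase of the middle step, which uses glutamate as its amino donor. It had 312, 232 and 255 normalized counts in the starved libraries, against 104, 96.0 and 124 in the Ars libraries. It was 2.45-fold higher in starved cells (log2 fold change 1.29 ± 0.14, limma adjusted p = 2.57e-07), and the lowest starved library was still well above the highest Ars library.

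PSPH (chr7:56011051-56051604, minus strand) encodes the phosphatase that releases serine. It had 153, 164 and 165 normalized counts in the starved libraries, against 129, 117 and 102 in the Ars libraries. The groups did not overlap, but the difference stayed below 1.5-fold (log2 fold change 0.47 ± 0.13, limma adjusted p = 0.00478), so PSPH was the 1 gene of the 10 that was not called.

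SHMT1 and MTHFD1, of the cytosolic set, fell in starved cells. SHMT1 (chr17:18327860-18363563, minus strand) encodes the cytosolic enzyme that converts serine and tetrahydrofolate to glycine and methylene-tetrahydrofolate. It had 50.5, 66.4 and 69.6 normalized counts in the starved libraries, against 245, 230.1 and 239 in the Ars libraries. Starved cells thus held SHMT1 RNA at 0.262 times the Ars level (log2 fold change -1.93 ± 0.15, limma adjusted p = 4.61e-09), and of the 12971 genes tested it ranked 361 from the strongest fall. MTHFD1 (chr14:64388031-64463457, plus strand) encodes a trifunctional cytosolic enzyme that interconverts methylene-, methenyl- and formyl-tetrahydrofolate and activates formate. It had 449, 346 and 295.0 normalized counts in the starved libraries, against 885, 793 and 802 in the Ars libraries. MTHFD1 fell to 0.434 times the Ars level (log2 fold change -1.20 ± 0.14, limma adjusted p = 5.75e-07), and no starved library reached an Ars value.

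The mitochondrial set was higher throughout in starved cells. SHMT2 (chr12:57229573-57234935, plus strand) encodes the mitochondrial counterpart of SHMT1. It had 2962, 3038 and 3432 normalized counts in the starved libraries, against 1288, 1232 and 1247.7 in the Ars libraries. The Ars libraries were tightly grouped and every starved library exceeded them, with a 2.5-fold difference (log2 fold change 1.32 ± 0.10, limma adjusted p = 1.85e-09). MTHFD2 (chr2:74186172-74217565, plus strand) encodes the mitochondrial methylene-tetrahydrofolate dehydrogenase and cyclohydrolase. It had 1956, 1636 and 1661 normalized counts in the starved libraries, against 581, 465 and 566 in the Ars libraries. This was the largest rise among the 10 genes in this comparison (3.26-fold, log2 fold change 1.70 ± 0.11, limma adjusted p = 2.53e-10), and MTHFD2 ranked 475 from the strongest rise of all genes tested.

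MTHFD1L (chr6:150865679-151101887, plus strand) encodes the mitochondrial formyl-tetrahydrofolate synthetase, which releases formate. It had 914, 787 and 723 normalized counts in the starved libraries, against 444, 519 and 464 in the Ars libraries. The groups were separate, and the rise was the smallest of those called (1.69-fold, log2 fold change 0.76 ± 0.11, limma adjusted p = 1.23e-05). It fell short of 1.5-fold when libraries were scaled to equal totals (log2 fold change 0.58) or quantile normalized (0.55). ALDH1L2 (chr12:105019784-105107643, minus strand) encodes the mitochondrial formyl-tetrahydrofolate dehydrogenase, which yields NADPH and CO2. It had 95.5, 99.5 and 85.1 normalized counts in the starved libraries, against 25.7, 34.5 and 40.2 in the Ars libraries. Its level per library was low, but the groups were far apart (2.78-fold higher, log2 fold change 1.47 ± 0.19, limma adjusted p = 3.12e-06).

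SLC25A32 (chromosome 8) encodes the mitochondrial folate carrier. It had 33.7, 31.4 and 33.1 normalized counts in the starved libraries, against 19.6, 13.0 and 15.9 in the Ars libraries. Few reads lay behind each value, which gave it the widest error among the 10 (log2 fold change 0.99 ± 0.26, 1.99-fold higher, limma adjusted p = 0.0028).

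Exons of 6 of these genes share bases with genes on the other strand, and the sources used here do not say whether strand was used in counting, so their values are less certain. The largest such neighbours were SMCR8 beside SHMT1 (up to 441 normalized counts) and DCAF13 beside SLC25A32 (up to 421), both above the gene they overlap. For ALDH1L2 the neighbours were WASHC4 (up to 98.7) and NOPCHAP1 (up to 43.3), for MTHFD1 it was ZBTB25 (up to 84.6), for SHMT2 a non-coding gene reached 90.8, and for MTHFD2 no neighbour exceeded 3.80. Of 14 pseudogene copies of the 10 genes in the table, 6 had any count and none exceeded 3.49.

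**Figure D2:**
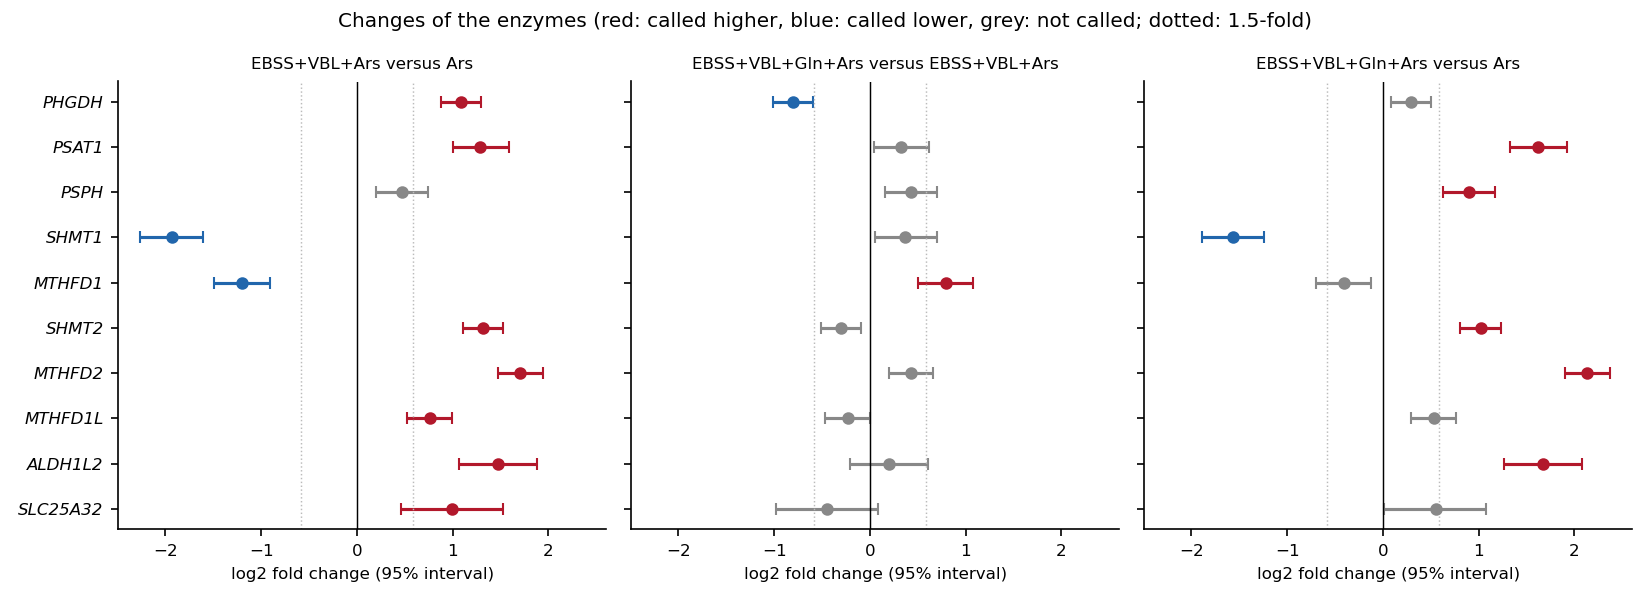
Log2 fold change of each gene (horizontal axis) with its 95% interval in the 3 comparisons. Red points were called higher, blue points lower and grey points not called, and dotted lines mark 1.5-fold. In the left panel the cytosolic genes SHMT1 (-1.93) and MTHFD1 (-1.20) lie left of 0 and the other 8 genes to the right.

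Glutamine moved the 10 genes in different directions. Glutamine-recovered cells were set against starved cells to ask what glutamine alone did under starvation and VBL. MTHFD1 was called higher, where 8.45% of all genes tested were, and PHGDH was called lower, where 8.52% were. The other 8 genes were not called, and of all genes tested 17.0% were called in either direction. Groups did not overlap for 7 of 10 genes, against 39.2% of all genes tested, and the median log2 fold change was 0.27 over the 10 genes and 0.00 over all genes.

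PHGDH had 1726, 1917 and 1708 normalized counts in the glutamine-recovered libraries, against the 3 starved values of 3075 to 3178. The lowest starved library was far above the highest glutamine-recovered library, and PHGDH fell to 0.573 times the starved level (log2 fold change -0.80 ± 0.10, limma adjusted p = 2e-05). With libraries scaled to equal totals the change was -0.52, and with quantile normalization it was -0.51, both short of 1.5-fold and not called. MTHFD1 had 723, 552 and 600 normalized counts in the glutamine-recovered libraries, against 295.0 to 449 in the starved libraries. Its 3 glutamine-recovered values exceeded each starved value, with a 1.73-fold difference (log2 fold change 0.79 ± 0.14, limma adjusted p = 0.000426).

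The remaining serine synthesis genes did not follow PHGDH. PSAT1 had 346, 300.4 and 354 normalized counts in the glutamine-recovered libraries, against 232 to 312 in the starved libraries. These ranges overlapped, and the log2 fold change of 0.33 (95% interval 0.04 to 0.62) was not called (limma adjusted p = 0.0834). PSPH had 227, 217 and 207 normalized counts in the glutamine-recovered libraries, against 153 to 165 in the starved libraries. The groups were separate, but the log2 fold change of 0.43 (95% interval 0.16 to 0.70, limma adjusted p = 0.018) was below 1.5-fold.

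SHMT1, the other cytosolic gene, had 86.6, 70.8 and 83.6 normalized counts in the glutamine-recovered libraries, against 50.5 to 69.6 in the starved libraries. The lowest glutamine-recovered library was barely above the highest starved library, and the log2 fold change of 0.37 (95% interval 0.05 to 0.70) was not called (limma adjusted p = 0.0785).

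Of the 5 mitochondrial genes, none reached 1.5-fold between glutamine-recovered and starved cells, although 2 had an adjusted p under 0.05 in limma. MTHFD2 had 2413, 2231 and 2405 normalized counts in the glutamine-recovered libraries, against 1636 to 1956 in the starved libraries. Its groups did not overlap (log2 fold change 0.43, 95% interval 0.20 to 0.66, limma adjusted p = 0.00781). MTHFD2 was called higher with quantile normalization (0.75, limma adjusted p = 0.000358) and with equal totals (0.71, limma adjusted p = 0.000741). SHMT2 had 2439, 2607 and 2595 normalized counts in the glutamine-recovered libraries, against 2962 to 3432 in the starved libraries. It thus lay on the opposite side of 0 from MTHFD2 (log2 fold change -0.30, 95% interval -0.51 to -0.09, limma adjusted p = 0.0286). Over 22 alternative ways of processing, the SHMT2 change ran from -0.34 to 0.00, so its distance from 0 depended on the processing. MTHFD1L had 732, 648 and 678 normalized counts with glutamine, against 723 to 914 without it, and the ranges touched (log2 fold change -0.23, limma adjusted p = 0.129). ALDH1L2 had 95.2, 95.8 and 135.0 normalized counts with glutamine, against 85.1 to 99.5 without it, with 1 library apart from the rest (log2 fold change 0.20, limma adjusted p = 0.464). SLC25A32 had 29.2, 23.9 and 19.2 normalized counts with glutamine, against 31.4 to 33.7 without it. The groups did not overlap, but the 95% interval of its log2 fold change was -0.98 to 0.09 (limma adjusted p = 0.201).

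The GC content of transcripts moved with this comparison. The change with glutamine correlated with GC content at r = -0.39 over 12960 genes (genes are no independent replicates), against 0.07 for EBSS+VBL+Ars versus Ars. The part of GC content in the glutamine result was not tested beyond the values that follow. PHGDH (58.1% GC) and SHMT2 (56.1%) were the richest of the 10, MTHFD2 (41.0%) and SLC25A32 (40.2%) the poorest, and MTHFD1 (48.5%) was near the median of all genes (49.6%). After the trend of each library with GC content was removed, PHGDH still differed by -0.63 (limma adjusted p = 1.98e-05) and MTHFD1 by 0.77 (limma adjusted p = 0.000157). MTHFD2 then differed by 0.20 (limma adjusted p = 0.0606), and SLC25A32 was called lower, by -0.69 (limma adjusted p = 0.0457).

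**Figure D3:**
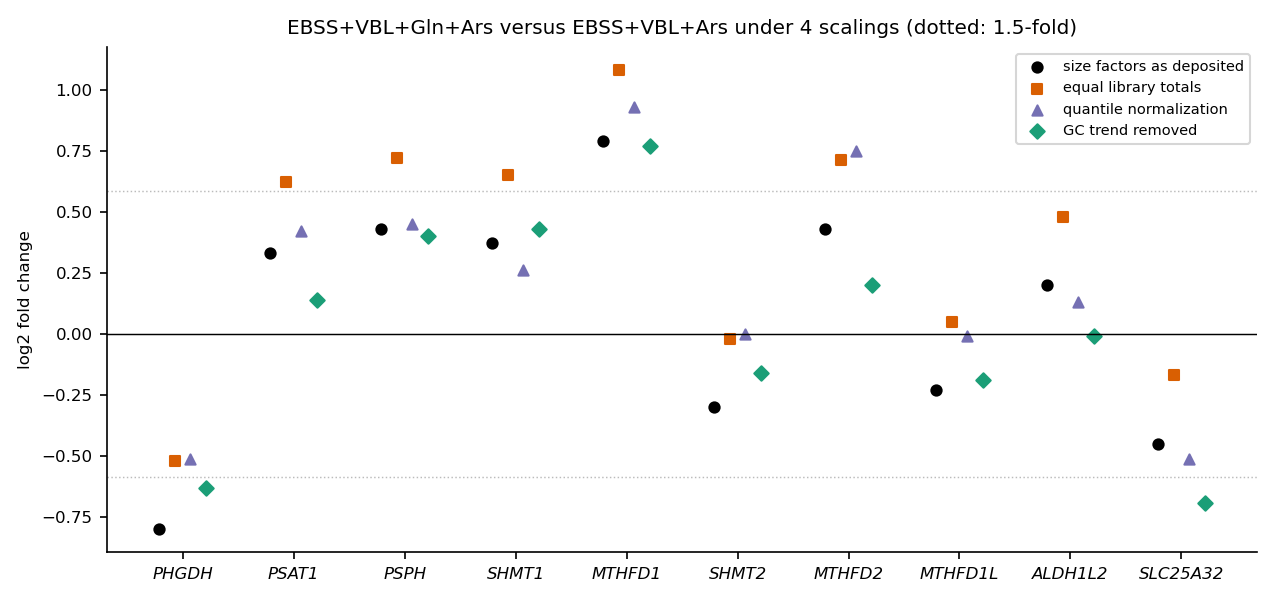
Log2 fold change of EBSS+VBL+Gln+Ars versus EBSS+VBL+Ars (vertical axis) for each gene under 4 ways of scaling the libraries, with dotted lines at 1.5-fold. MTHFD1 stayed above the upper line in all 4 (0.77 to 1.08), whereas PHGDH lay between -0.80 and -0.51.

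Scaling to equal totals raised the median of all genes tested by 0.28 in this comparison. Under it MTHFD1 was still the highest of the 10 (1.08) and PHGDH the lowest (-0.52). PSAT1 (0.62), PSPH (0.72), SHMT1 (0.65) and MTHFD2 (0.71) then passed 1.5-fold. Of the 10 genes 5 were then called higher, where 21.9% of all genes tested were, and 0 lower, where 2.54% were.

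Set against Ars cells, glutamine-recovered cells had higher levels of PSAT1, PSPH and 3 of the 5 mitochondrial genes, and a lower level of SHMT1. This comparison shares its libraries with both comparisons above. It called 5 of the 10 genes higher, where 16.5% of all genes tested were, and 1 lower, where 15.3% were (6 in either direction, against 31.8%). The groups were separate for 9 of 10 genes, against 57.2% of all genes tested, and the median log2 fold change was 0.72 over the 10 genes and 0.02 over all genes. MTHFD2 was 4.39-fold higher (log2 fold change 2.13 ± 0.11, limma adjusted p = 2.8e-11) and ranked 132 from the strongest rise of all genes tested. ALDH1L2 was 3.19-fold higher (limma adjusted p = 1.05e-06) and PSAT1 3.08-fold higher (limma adjusted p = 2.1e-08). SHMT2 was 2.03-fold higher (limma adjusted p = 1.06e-07) and PSPH 1.87-fold higher (limma adjusted p = 1.48e-05).

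SHMT1 was lower in glutamine-recovered cells, at 0.339 times the Ars level (log2 fold change -1.56 ± 0.15, limma adjusted p = 1.43e-07). MTHFD1 was at 0.752 times the Ars level (log2 fold change -0.41, 95% interval -0.70 to -0.12, limma adjusted p = 0.0213) and was not called. PHGDH was also not called (log2 fold change 0.29, 95% interval 0.08 to 0.50, limma adjusted p = 0.0263), although its lowest glutamine-recovered library (1708) exceeded its highest Ars library (1583). MTHFD1L (0.53, limma adjusted p = 0.000781) and SLC25A32 (0.55, limma adjusted p = 0.0902) were below 1.5-fold. MTHFD1L was called without Ars library 2 (0.59) and with equal totals (0.63), and SLC25A32 with quantile normalization (0.65, limma adjusted p = 0.0416).

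Between Ars cells and the untreated library no test was run, since the untreated group was 1 library, and values are given with exact 95% Poisson intervals that cover counting error only. Of the 10 genes, 4 were at least 1.5-fold higher in Ars cells, where 20.2% of 12718 tested genes with at least 10 normalized counts on either side were, and 0 were at least 1.5-fold lower, where 18.9% were. SHMT1 averaged 238 ± 7.52 normalized counts in Ars cells (SD, n = 3) and 129 in the untreated library, a ratio of 1.84 (interval 1.54 to 2.23). PHGDH averaged 1464 ± 113 in Ars cells (SD, n = 3) and 866 in the untreated library, a ratio of 1.69 (interval 1.56 to 1.80). PSPH had a ratio of 1.51 (interval 1.20 to 1.95). SLC25A32 had a ratio of 1.55, but with only 11 reads in the untreated library its interval was 0.826 to 3.33.

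The other 4 mitochondrial genes stayed below 1.5-fold between Ars cells and the untreated library. SHMT2 had a ratio of 0.913 (interval 0.862 to 0.971), MTHFD2 of 0.822 (0.762 to 0.907), MTHFD1L of 0.962 (0.865 to 1.05) and ALDH1L2 of 0.879 (0.600 to 1.27). The untreated values of MTHFD1L and ALDH1L2 lay within the Ars range. PSAT1 had a ratio of 0.778 (interval 0.643 to 0.947) and MTHFD1 of 1.08 (1.00 to 1.17). Without Ars library 1, PSPH (1.43) and SLC25A32 (1.38) fell below 1.5-fold and 2 genes remained past it. The summed markers of the line also differed, with 27258 to 29191 normalized counts in Ars and 12638 in the untreated library. Whether the untreated library differs from Ars cells by more than arsenite was not tested.

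The ratio of a mitochondrial gene to its counterpart sets the compartments against each other within a library, where scaling cancels. Ratios were taken per kb of transcript and were not tested. SHMT2 to SHMT1 was 33.0, 43.2 and 36.4 in glutamine-recovered libraries, 68.7, 53.6 and 57.8 in starved libraries, 6.16, 6.27 and 6.12 in Ars libraries, and 12.5 in the untreated library. The 3 groups did not overlap, and the untreated library lay between the Ars and the glutamine-recovered libraries. MTHFD1L to MTHFD1 was 0.925, 1.07 and 1.03 in glutamine-recovered libraries, 1.86, 2.08 and 2.24 in starved libraries, 0.459, 0.598 and 0.529 in Ars libraries, and 0.588 in the untreated library. The starved libraries were above all others, and the glutamine-recovered libraries were above the Ars libraries. The size of a ratio depends on the transcript lengths used, but the order of the libraries does not.

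MTHFD2L encodes a second mitochondrial enzyme with the activity of MTHFD2. MTHFD2 to MTHFD2L was 35.1, 22.8 and 29.3 in glutamine-recovered libraries, 15.8, 29.5 and 24.4 in starved libraries, 6.05, 5.23 and 5.82 in Ars libraries, and 13.1 in the untreated library. Glutamine-recovered and starved libraries overlapped, and both were above all Ars libraries. ALDH1L1 encodes the cytosolic counterpart of ALDH1L2. ALDH1L2 to ALDH1L1 was 0.363, 0.382 and 0.560 in glutamine-recovered libraries, 0.566, 0.588 and 0.402 in starved libraries, 0.149, 0.159 and 0.166 in Ars libraries, and 0.258 in the untreated library. The Ars libraries were below all others.

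**Figure D4:**
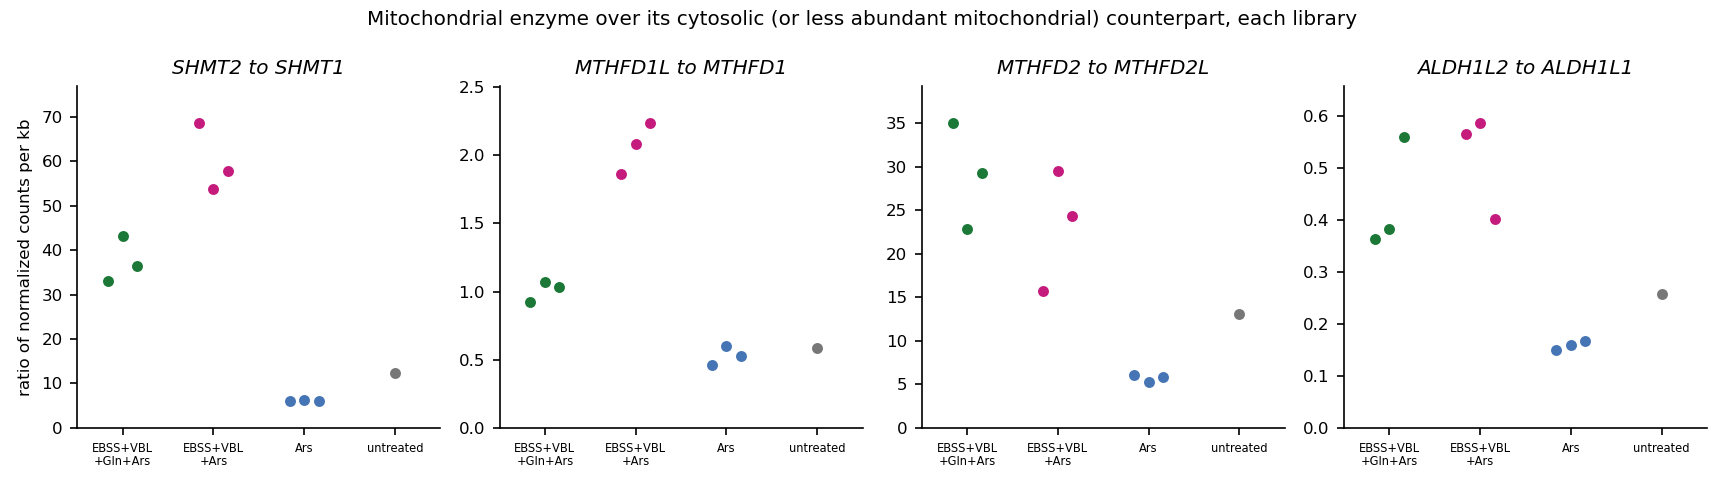
Ratio of normalized counts per kb (vertical axis, from 0) of a mitochondrial gene to its counterpart, 1 point a library, in EBSS+VBL+Gln+Ars, EBSS+VBL+Ars, Ars and untreated libraries from left to right. SHMT2 to SHMT1 was 53.6 to 68.7 in starved libraries and 6.12 to 6.27 in Ars libraries.

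Per kb of transcript (the Ensembl canonical transcript), SHMT2 and PHGDH were the 2 highest of the 10 genes in every group. In glutamine-recovered cells SHMT2 (1181 ± 43.4 normalized counts per kb, SD, n = 3) was above PHGDH (956 ± 62.0). In starved cells PHGDH (1667 ± 31.1) was above SHMT2 (1457 ± 117), and in Ars cells PHGDH (785 ± 60.5) was above SHMT2 (582 ± 13.5). The untreated library had 638 for SHMT2 and 464 for PHGDH. With the length of all merged exons in place of the canonical transcript, SHMT2 ranked 1 and PHGDH 2 or 3 in every group, so this order depends on the length used.

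MTHFD2 had rank 3 per kb in glutamine-recovered cells (534 ± 23.4) and in starved cells (398 ± 40.4), and rank 5 in Ars cells (122 ± 14.3). MTHFD1 had rank 5 in glutamine-recovered cells (198 ± 28.0), where it overlapped MTHFD1L (199 ± 12.3). It had rank 6 in starved cells (115 ± 24.9), where it overlapped PSAT1 (121 ± 18.7), and rank 3 in Ars cells (262 ± 16.1). With merged exons MTHFD2 had rank 2, 4 and 6 in glutamine-recovered, starved and Ars cells, and MTHFD1 had rank 7, 7 and 5, so these places too depend on the length used. SHMT1 had 31.8 ± 3.33 per kb in glutamine-recovered, 24.6 ± 4.03 in starved and 94.2 ± 2.98 in Ars cells. ALDH1L2 and SLC25A32 were the lowest in every group by the canonical transcript, at 14.6 ± 3.07 and 8.34 ± 1.74 per kb in glutamine-recovered cells, 12.6 ± 1.00 and 11.3 ± 0.41 in starved cells, and 4.50 ± 0.99 and 5.60 ± 1.13 in Ars cells. This pair overlapped in starved and in Ars cells. With merged exons SHMT1 was the lowest in starved cells, at rank 10.

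**Figure D5:**
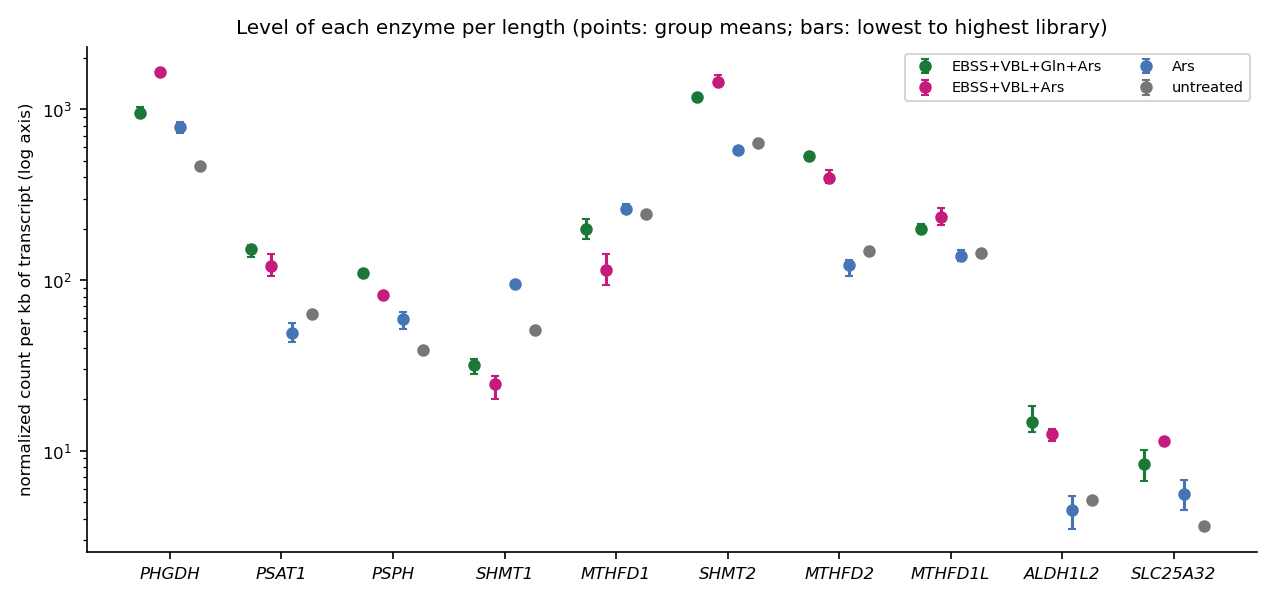
Normalized counts per kb of canonical transcript (log axis) for the 10 genes. Points are group means, or the 1 untreated library, and bars run from the lowest to the highest library. SHMT2 and PHGDH are the highest in each group, and the points of SHMT1 are lower in starved (24.6) than in Ars cells (94.2).

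Among themselves, the 10 genes varied in 2 directions over the 9 replicated libraries. These libraries fall into 3 groups and share their scaling, so correlations describe the group pattern. PSAT1 and MTHFD2 followed each other closely (Pearson r = 0.99), and ALDH1L2 followed both (0.96 with PSAT1 and 0.95 with MTHFD2). SHMT1 ran opposite to all 8 genes outside the cytosolic set, from -0.97 with SHMT2 to -0.73 with PSPH. MTHFD1 ran most closely opposite to PHGDH (-0.95), and PHGDH was only loosely related to PSPH (0.26) and PSAT1 (0.52).

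The genes outside the 10 with the most similar pattern were found among those that averaged at least 100 normalized counts, by Pearson r over the same 9 libraries. For MTHFD2 they were CORO1C (0.998), CXCL8 (0.997) and FAM107B (0.996). For PSAT1 they were FAM107B (0.995), GLIPR1 (0.993) and NEDD4 (0.992). PHGDH was most like HDAC5 and CHERP (0.997 each) and NBL1 (0.993), and SHMT2 was most like ABL2 (0.998), DPH2 and GTPBP2 (0.997 each). SHMT1 was most like CRABP2 and EPB41L1 (0.995 each) and MVK (0.992), and MTHFD1 was most like ERH (0.995), SEC61B (0.987) and SEPHS1 (0.986). For PSPH they were TUFT1 (0.977), RABEPK (0.976) and RRAS2 (0.971), and for MTHFD1L they were EIF3B (0.989), ACOT9 (0.986) and CAMK2N1 (0.985). The likeness was weakest for SLC25A32, with IMP4 at 0.953 and BICD1 and TIMM44 at 0.952, while ALDH1L2 had ALPL (0.982), OSBPL8 (0.980) and HBEGF (0.978).

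Of 40 other genes of the pathway, 33 passed the filter. In starved against Ars cells 11 of the 33 were called higher and 7 lower, where 21.5% and 21.3% of all genes tested were, with a median log2 fold change of 0.10. In glutamine-recovered against starved cells 6 were called higher and 4 lower (8.45% and 8.52% of all genes), and in glutamine-recovered against Ars cells 10 higher and 2 lower (16.5% and 15.3% of all genes). Of the 8 serine and glycine transport genes, 5 were called higher and 2 lower in starved against Ars cells. SLC38A1, a neutral AA transporter, was 5.89-fold higher (limma adjusted p = 4.14e-12), and the serine transporters SLC1A4 and SLC1A5 were 3.46-fold and 2.62-fold higher (limma adjusted p = 8.1e-11 and 7.2e-09). SLC6A9, the glycine transporter, was 3.2-fold higher (limma adjusted p = 3.77e-09), whereas SFXN1, which carries serine into mitochondria, fell to 0.369 times the Ars level (limma adjusted p = 2.02e-08).

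Both SLC38A1 (0.653 times) and SLC6A9 (0.532 times) were called lower in glutamine-recovered than in starved cells, as was SLC1A5 (0.626 times), and SFXN1 was called 1.58-fold higher. Of the glycine cleavage genes only DLD, which also serves other complexes, passed the filter, and GLDC, AMT and GCSH did not exceed 9.59 normalized counts in any library. In glutamine-recovered cells DLD was at 1.59 times the starved level (limma adjusted p = 0.0162), and it was not called in the other comparisons.

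Among the genes of folate uptake, 2 carriers were called in starved against Ars cells, in opposite directions. Of all genes tested, 42.8% were called in either direction. SLC19A1, the reduced folate carrier, was 1.57-fold higher (limma adjusted p = 0.000293), and SLC46A1, the proton-coupled folate transporter, was at 0.644 times (limma adjusted p = 0.00739). In the 1 untreated library SLC19A1 had 729 and SLC46A1 had 246 normalized counts, above every Ars and starved library. Their means were 328 and 84.4 in Ars cells, and 519 and 55.0 in starved cells. The folate receptor gene FOLR1 was at 1.17 times (limma adjusted p = 0.385) and was not called, and FOLR2 was listed at 0 in all 10 libraries.

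Of 4 genes that use one-carbon units, TYMS, which makes thymidylate, fell to 0.304 times the Ars level in starved cells (limma adjusted p = 1.69e-10), and MTFMT, which formylates the mitochondrial initiator tRNA, to 0.613 times (limma adjusted p = 0.00876). In glutamine-recovered cells TYMS was at 1.78 times the starved level (limma adjusted p = 3.07e-05). GART and ATIC, of purine synthesis, had 1.48-fold and 1.13-fold the Ars level in starved cells and were not called. MTHFD2L and ALDH1L1, of folate interconversion, were not called in any comparison.

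In the methionine cycle and transsulfuration, 4 of 10 tested genes were called higher and 1 lower in starved against Ars cells, and 42.8% of all genes were called in either direction. CTH, which releases cysteine in transsulfuration, and CBS, which joins serine to homocysteine, were 7.22-fold and 3.59-fold higher (limma adjusted p = 2.08e-11 and 1.57e-05). MAT2A, which makes S-adenosylmethionine, was 1.72-fold higher (limma adjusted p = 4.88e-06), and MTRR, which reactivates methionine synthase, was 1.83-fold higher (limma adjusted p = 0.00015). AHCYL1, a relative of AHCY, fell to 0.628 times the Ars level (limma adjusted p = 0.000125). AHCY itself was at 1.01 times (limma adjusted p = 0.934) and was not called. BHMT was at 0 in all 10 libraries. In glutamine-recovered against Ars cells CTH was 8.51-fold and CBS 4.18-fold higher (limma adjusted p = 1.56e-11 and 6.8e-06). CBS had only 7.45 to 15.9 normalized counts in the Ars libraries, near the filter of 10, so its folds against Ars cells are imprecise.

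Of 4 regulators of serine synthesis genes, 3 were called higher and 1 lower in starved against Ars cells. Of all genes tested, 21.5% were called higher and 21.3% lower there, and the 4 were picked by hand. ATF4 was 2.72-fold higher (limma adjusted p = 4.98e-10), MYC 7.47-fold higher (limma adjusted p = 2.08e-14) and NFE2L2 2.07-fold higher (limma adjusted p = 1.54e-06). EIF2AK4, which encodes the kinase GCN2, fell to 0.654 times the Ars level (limma adjusted p = 0.00459). In glutamine-recovered against starved cells none of the 4 reached 1.5-fold, although MYC was at 0.703 times (limma adjusted p = 0.000683) and ATF4 at 0.812 times (limma adjusted p = 0.0289).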

How the data were processed

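Per the labels and the study's methods, the authors removed ribosomal RNA from total RNA, mapped reads with STAR (hg38), obtained gene counts with HTSeq and scaled them with DESeq2. Versions, annotation release and strand setting are not given in the sources used here. As deposited, the signal is the normalized count, a gene's count over the size factor of its library, with no replicates pooled. In every library 100% of values were whole multiples of 1 step within 0.01 reads, which gave back the reads.

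A minimum mean of 10 over the 9 replicated libraries kept 12971 of 60671 genes. Their log2(normalized count + 1) values were fitted in limma (lmFit, contrasts.fit and trended eBayes) with all 3 groups sharing 1 spread and no replicate block, and fold changes are on that scale. P-values were two-sided, with Benjamini-Hochberg adjustment across these genes. The study's test was DESeq2, which was run as an alternative on recovered reads, beside edgeR, since the deposited values are not reads. The other alternatives were the pseudocount, the filter, equal totals, quantile normalization, removal of each library's GC trend, 2 groups only, the replicate block, no minimum fold and each library left out. The script was tested on simulated data. Genes were named by rule: the 10 genes, up to 5 of each pathway list with the smallest p in the first 2 comparisons plus genes at or near 0, and the 3 most similar genes of each. AHCY was added beside AHCYL1. Some genes of the lists are counted in the totals but not reported here by name. The 10 genes and the lists were chosen with earlier results of these data known, so they are not independent support. The study itself also displayed normalized counts of multiple genes of AA synthesis. GENCODE 44 gave coordinates, lengths and GC content for 60401 gene IDs. Python 3.11.15 with matplotlib 3.10.9 and R 4.3.3 with limma 3.58.1, DESeq2 1.42.0 and edgeR 4.0.16 were used.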

Additional observations from a re-analysis of the deposited data

How the results depend on the processing

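Between starved and Ars cells 9 of the 10 genes were called, 10 with no minimum fold and 8 or 9 under every other alternative, and each gene kept its direction under all of them, except that SLC25A32 was not tested with a minimum mean of 50. Between glutamine-recovered and starved cells 2 genes were called, but 5 with equal totals and 5 with no minimum fold, and 3 with the GC trend removed, where SLC25A32 was added. With quantile normalization the 2 were MTHFD1 and MTHFD2, without PHGDH. In this comparison the change of MTHFD1L turned to 0.05 with equal totals (limma adjusted p = 0.77) and that of ALDH1L2 to -0.01 with the GC trend removed, with or without the replicate block. Neither change was called. Between glutamine-recovered and Ars cells 6 genes were called, 9 with no minimum fold and 6 or 7 under every other alternative. The genes past 1.5-fold between Ars cells and the untreated library numbered 2 to 4 with each Ars library left out. Equal totals put the median of all genes at -0.16 between starved and Ars cells and gave 2076 genes higher and 3617 lower, against 2791 and 2757 with the deposited scaling. Between glutamine-recovered and starved cells they gave 2836 higher and 330 lower, against 1096 and 1105, and between glutamine-recovered and Ars cells 2630 and 1593, against 2139 and 1985. With no minimum fold, 7306 of 12971 genes tested were called between starved and Ars cells, against 5548 at 1.5-fold or more. Between glutamine-recovered and starved cells 3729 were called, against 2201, and between glutamine-recovered and Ars cells 5804, against 4124. Removal of the GC trend gave 1680 genes called between glutamine-recovered and starved cells, and quantile normalization gave 1885. Libraries that share a number were not taken as pairs (r of their deviations from -0.06 to 0.31, over 0.1 for 4 of 9 pairs). For libraries of different groups and unlike numbers r ran from -0.31 to 0.21, over 0.1 for 4 of 18 pairs. The replicate block changed no call of the 10 genes and called 5634, 2385 and 4223 genes in the 3 comparisons. The low counts of SLC25A32 and ALDH1L2 limit the precision of both.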
